A study of Homo sapiens with 12 samples.

Results

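CTTN and HCLS1, the 2 genes that encode cortactin and its blood-cell paralog HS1, were followed across 4 groups of the mantle cell lymphoma line Z-138. They were found by their symbols in a deposited count table of 13820 genes, where each had 1 row (ENSG00000085733 for CTTN, on chromosome 11, and ENSG00000180353 for HCLS1, on chromosome 3). The pair was chosen by its levels in the knockdown comparisons of these same libraries. Knockdown effects on both genes are therefore given as descriptions, with no test. Drug effects and the other genes were tested.

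Z-138 is an established human line of mantle cell lymphoma, a B cell cancer. The groups were SMARCA4 shRNA cells given ibrutinib plus venetoclax (3 µM each), SMARCA4 shRNA cells given DMSO, control shRNA cells given the 2 drugs, and control shRNA cells given DMSO, with 3 libraries in each. All 4 groups were grown with doxycycline. SMARCA4 encodes BRG1, a motor subunit of SWI/SNF chromatin remodellers. Ibrutinib blocks BTK, a kinase of B cell receptor signalling, while venetoclax blocks the survival protein BCL2. Knockdown and its shRNA construct go together in every library, so the effects of the 2 cannot be told apart. Nothing in the labels tells separate cultures from repeat libraries, and the p-values may thus reflect technical spread alone.

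Cortactin and HS1 both bind actin filaments and the Arp2/3 complex, which starts branches on existing filaments, and both stabilise the branches so made. Both carry a C-terminal SH3 domain that docks partner proteins and are phosphorylated by tyrosine kinases of the SRC family and SYK. Cortactin is the form of most adherent cells, where it is known from lamellipodia and invadopodia, and its gene lies in a region of chromosome 11 that is amplified in several carcinomas. HS1 is the main form in lymphocytes and other blood cells and is phosphorylated after B cell receptor engagement.

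Library totals ranged from 7279503 to 22528537 counts, the last being SMARCA4 shRNA in DMSO, replicate 3. The header of 1 column gave no treatment beside the control shRNA and its replicate number. It was taken as control shRNA with drug, replicate 1, the 1 sample that no other column named, and values without it are given where they end a call of a named gene or move a count by over 1.5 times. SMARCA4 stood at 174.8 ± 8.66 CPM (counts scaled to library size with TMM; mean ± SD, n = 3) in SMARCA4 shRNA cells with drug against 609.8 ± 28.2 CPM in control shRNA cells with drug. In DMSO it stood at 170 ± 9.67 CPM in SMARCA4 shRNA cells against 576.8 ± 21.6 CPM in control shRNA cells, which leaves 29.4% of the control level. Of the B cell and mantle cell lymphoma markers checked, CD79A, CD79B, PAX5, MS4A1 and CCND1 fell and SOX11 rose with knockdown in DMSO. The call of PAX5 (-0.17, edgeR adjusted p = 0.0407) ended in 10 of 18 alternative fits, 7 of which left out 1 library, among them each of the 6 DMSO libraries. Of markers of cells rich in cortactin, 0 of 5 epithelial and 0 of 4 megakaryocyte genes, and 1 of 5 fibroblast genes, had a row under their symbols. Of the 13820 rows, 1656 had no symbol, and the smallest total of any row over the 12 libraries was 13 counts. A gene with no row under its symbol, here or below, is therefore not shown to be unexpressed. The fibroblast gene, COL1A1, had 14.8 to 15.1 CPM in SMARCA4 shRNA cells and 19.6 to 23.7 CPM in control shRNA cells in DMSO, so it lay lower where CTTN lay higher. Of 5 T and NK cell markers, 2 were tested, and their summed level was 1.53 to 2.39 CPM in SMARCA4 shRNA cells and 16.4 to 18.2 CPM in control shRNA cells in DMSO. The part of these markers in the results below was not tested.

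CTTN and HCLS1 share the end of the coding sequence, which encodes the SH3 domain. It is shown because the 2 rows can be set side by side only if their reads are told apart. The last 56 codons and the stop codon are printed from the reference transcripts CTTN-201 and HCLS1-201 of GENCODE release 29 (GRCh38), with capitals at each base that is identical in the other gene.
CTTN: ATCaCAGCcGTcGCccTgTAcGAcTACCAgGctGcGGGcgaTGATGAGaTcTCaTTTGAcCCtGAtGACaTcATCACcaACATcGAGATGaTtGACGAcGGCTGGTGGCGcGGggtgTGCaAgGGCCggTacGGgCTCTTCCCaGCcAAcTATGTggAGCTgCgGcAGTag
HCLS1: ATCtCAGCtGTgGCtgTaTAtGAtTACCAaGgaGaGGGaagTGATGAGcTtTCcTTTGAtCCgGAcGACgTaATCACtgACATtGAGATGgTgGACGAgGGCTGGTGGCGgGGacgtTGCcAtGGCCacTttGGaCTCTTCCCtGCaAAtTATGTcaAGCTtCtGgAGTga
Of these 171 bases, 120 (70.2%) are identical. CTTN-201 has 550 codons and HCLS1-201 has 486, the difference falling before this end. Over all 15 CTTN and 12 HCLS1 reference transcripts, the longest run of identical bases was 17, and 0 of 7065 different 20-base words in CTTN transcripts occurred in HCLS1 transcripts. An antisense gene overlaps CTTN in that annotation, and a pair of small RNA pseudogenes lie within HCLS1. The strand setting of the authors' counting is not given in the sources used here, so reads of the antisense gene cannot be told apart from those of CTTN.

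CTTN was a moderately expressed gene in control shRNA cells and a highly expressed one in SMARCA4 shRNA cells. With drug it had 136.9, 127.4 and 132.8 CPM in SMARCA4 shRNA cells against 24.13, 24.41 and 24.78 CPM in control shRNA cells. In DMSO it had 119.2, 116.7 and 112.9 CPM in SMARCA4 shRNA cells against 22.5, 24.88 and 26.38 CPM in control shRNA cells. All 6 SMARCA4 shRNA libraries lay above all 6 control shRNA libraries, with a wide gap between them. The log2 fold change for knockdown was 2.44 (SE 0.07) with drug and 2.24 (SE 0.07) in DMSO, or 5.41-fold and 4.73-fold, from 2 sets of libraries with none in common. Among 12602 genes tested, this placed CTTN 37th from the top with drug and 51st in DMSO, the values by which it was chosen. By level, it ranked 1311th of these genes in SMARCA4 shRNA cells in DMSO and 5172nd in control shRNA cells in DMSO.

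HCLS1 stayed the more abundant of the pair in counts in every library, but stood lower in SMARCA4 shRNA cells. With drug it had 164.4, 158 and 171.3 CPM in SMARCA4 shRNA cells against 233.5, 229.8 and 240.9 CPM in control shRNA cells. In DMSO it had 153.9, 158.7 and 146.7 CPM in SMARCA4 shRNA cells against 235.6, 220.6 and 228.5 CPM in control shRNA cells. The highest SMARCA4 shRNA library lay below the lowest control shRNA library in both treatments. The log2 fold change for knockdown was -0.51 (SE 0.05) with drug and -0.58 (SE 0.05) in DMSO, which left 70.1% and 66.9% of the control level. Of all genes tested, 31.3% in DMSO and 31.1% with drug passed an adjusted p of 0.05 for knockdown in edgeR's quasi-likelihood test, in either direction.

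**Figure D1:**
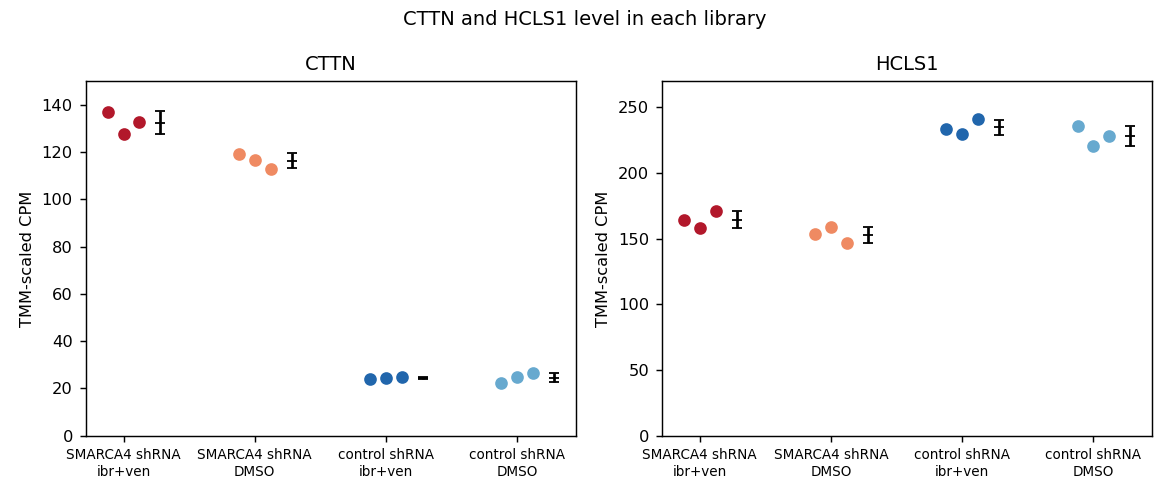
TMM-scaled CPM of CTTN (left) and HCLS1 (right), 1 point per library, with the mean and SD of each group of 3 beside it. CTTN lies at 112.9 to 136.9 CPM in SMARCA4 shRNA libraries and at 22.5 to 26.38 CPM in control shRNA libraries, while HCLS1 lies at 146.7 to 171.3 CPM in SMARCA4 shRNA libraries and at 220.6 to 240.9 CPM in control shRNA libraries.

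The ratio of CTTN to HCLS1 counts within a library does not depend on scaling. The libraries were made from the 3' ends of mRNA, so counts were not divided by gene length. Priming can still differ between genes, so the change of the ratio is better grounded than its level. For each 100 HCLS1 counts there were 83.24, 80.59 and 77.51 CTTN counts in SMARCA4 shRNA cells with drug, against 10.33, 10.62 and 10.29 in control shRNA cells with drug. In DMSO there were 77.47, 73.53 and 76.92 in SMARCA4 shRNA cells against 9.55, 11.28 and 11.55 in control shRNA cells. The 2 shRNAs did not overlap in either treatment. The log2 ratio was 2.95 higher with drug and 2.82 higher in DMSO in SMARCA4 shRNA cells, which is 7.71-fold and 7.05-fold.

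Expressed as a share of the 2 genes' joint counts, CTTN made up 44.6% ± 0.881 (SD, n = 3) in SMARCA4 shRNA cells with drug and 43.2% ± 0.694 in DMSO. In control shRNA cells it made up 9.43% ± 0.150 with drug and 9.73% ± 0.887 in DMSO. The 95% exact binomial (Clopper-Pearson) intervals of single libraries, which cover counting error alone, ran from 40.44% to 47.49% over the SMARCA4 shRNA libraries and from 7.657% to 11.72% over the control shRNA libraries. The joint level moved far less than the share. It was 296.9 ± 10.1 CPM in SMARCA4 shRNA cells against 259.2 ± 5.9 CPM in control shRNA cells with drug, and 269.4 ± 8.52 against 252.8 ± 6.53 CPM in DMSO. In DMSO, CTTN was 91.7 CPM higher and HCLS1 75.1 CPM lower in SMARCA4 shRNA cells. With drug, CTTN was 108 CPM higher and HCLS1 70.1 CPM lower. Fewer cells with a transcript and fewer transcripts per cell cannot be told apart in such bulk libraries.

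**Figure D2:**
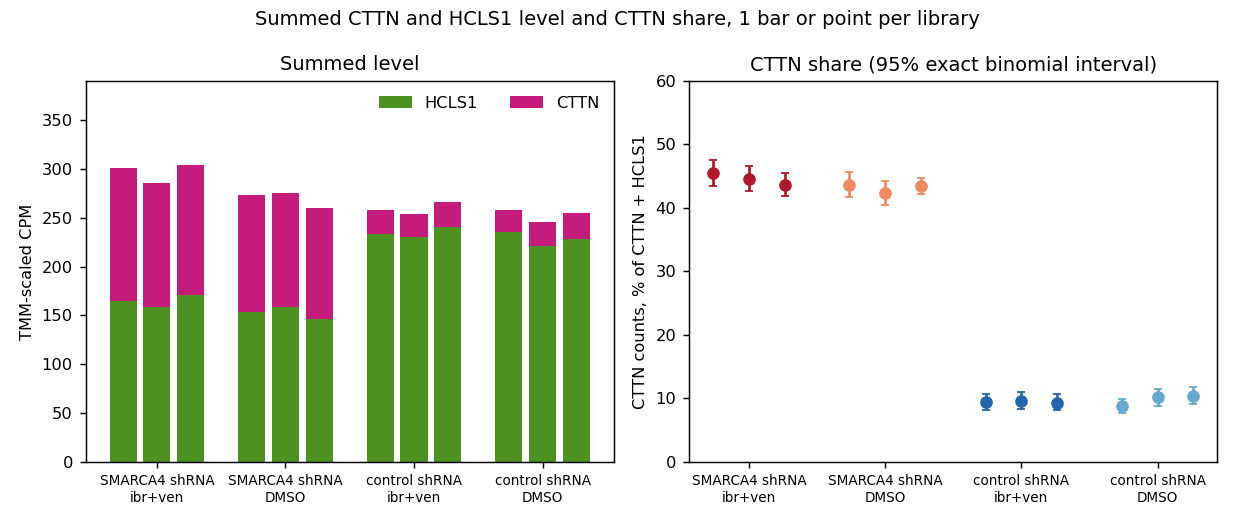
Left, TMM-scaled CPM of HCLS1 and CTTN stacked in each of the 12 libraries. Right, CTTN counts as a percentage of CTTN plus HCLS1 counts, with 95% exact binomial intervals, at 42.37% to 45.43% in SMARCA4 shRNA libraries and 8.718% to 10.35% in control shRNA libraries.

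Ibrutinib plus venetoclax moved neither gene past the threshold. In SMARCA4 shRNA cells CTTN had a log2 fold change of 0.19 (SE 0.06) with drug against DMSO, with an adjusted p of 0.15 in edgeR's quasi-likelihood test. The 3 drug libraries lay above the 3 DMSO libraries, and the 95% interval of the change, not adjusted for the number of genes, was 0.07 to 0.31. In control shRNA cells CTTN had -0.004 (SE 0.086, 95% interval -0.18 to 0.17, edgeR adjusted p = 0.993) and the libraries overlapped. HCLS1 had 0.11 (SE 0.055, 95% interval -0.005 to 0.22, edgeR adjusted p = 0.507) in SMARCA4 shRNA cells and 0.04 (SE 0.054, 95% interval -0.07 to 0.15, edgeR adjusted p = 0.884) in control shRNA cells, with overlap in both. The drug called 1.29% of genes in either shRNA. The difference of the drug effect between shRNAs was 0.19 for CTTN (SE 0.105, 95% interval -0.02 to 0.41, edgeR adjusted p = 0.922) and 0.07 for HCLS1 (SE 0.077, 95% interval -0.09 to 0.22, edgeR adjusted p = 0.982), a comparison that called 0.0238% of genes. The log2 ratio of CTTN to HCLS1 differed by 0.082 between drug and DMSO in SMARCA4 shRNA cells and by -0.046 in control shRNA cells. The ratios with drug and in DMSO did not overlap in SMARCA4 shRNA cells, though the nearest were 77.51 and 77.47 CTTN counts per 100, and the exact two-sided permutation p there was 0.1, the smallest that 3 against 3 can give. In control shRNA cells they overlapped (exact permutation p = 0.6). Because the 2 shRNAs had opposite signs, their mean difference was 0.018, with an exact stratified permutation p of 0.73 where the design can reach 0.005, a value that does not bear on either shRNA alone. In order of level, CTTN stood highest in SMARCA4 shRNA cells with drug, then in the same cells in DMSO, a step that did not pass the threshold. Control shRNA cells came last, and their 2 treatments overlapped. HCLS1 stood highest in control shRNA cells, where treatments overlapped, and lower in SMARCA4 shRNA cells, where they overlapped too.

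Other actin regulators also come as pairs of a blood-cell gene and a more widely expressed paralog, and these gave a setting for the CTTN and HCLS1 ratio. Of 16 such pairs beside CTTN and HCLS1, 10 had both genes tested. The ratio of the widely expressed to the blood-cell gene was higher in SMARCA4 shRNA cells in 9 of the 10 with drug, and likewise in 9 of the 10 in DMSO. The widely expressed gene moved further than the blood-cell gene for CTTN, PTK2, FMNL2 and VAV2, and the blood-cell gene moved further in the other pairs, in both treatments. Of 14 other blood-cell genes tested, 10 fell, 0 rose and 4 did not pass in DMSO (median log2 fold change -1.18), and the counts were also 10, 0 and 4 with drug (median -1.31). The background is 16.2% of all genes lower in DMSO and 16.3% with drug. Of 11 other widely expressed genes tested, 6 rose and 0 fell in DMSO (median 0.26), and 5 rose and 1 fell with drug (median 0.19), against 15.1% and 14.8% of all genes higher. Without control shRNA drug replicate 2, 3 rose with drug. Of these genes, PTK2 passed the low-count filter through SMARCA4 shRNA libraries alone, and MYO1G and VAV2 through control shRNA libraries alone. Each could hardly be called in the other direction, so their calls and ratios do not weigh as the others do. The pairs were drawn up with earlier results of these data known. The blood-cell label follows usual tissue, not these data, and does not mean that a gene is limited to blood cells.

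Values with an SE are, unless another comparison is named, log2 fold changes of SMARCA4 shRNA against control shRNA. CORO1A, the blood-cell coronin that binds actin and Arp2/3, stood at 25.9 ± 1.97 CPM in SMARCA4 shRNA cells against 79 ± 3.59 CPM in control shRNA cells with drug, and at 25.2 ± 1.34 against 74.7 ± 1.71 CPM in DMSO. Its wider paralog CORO1C rose by 0.17 (SE 0.06) with drug and 0.16 (SE 0.06) in DMSO, small changes whose calls often ended. The drug call of CORO1C ended with 2 groups alone and without SMARCA4 shRNA drug replicate 2 or control shRNA drug replicate 1 or 2, and the DMSO call ended in 9 of 18 alternatives (adjusted p up to 0.144), by the DESeq2 test, with the replicate block, and without SMARCA4 shRNA DMSO replicate 1 or 2, control shRNA drug replicate 1 or 2, or any control shRNA DMSO replicate. ARHGDIB, a blood-cell GDP dissociation inhibitor, fell, at -1.59 (SE 0.07) with drug and -1.60 (SE 0.06) in DMSO. MYO1G, a blood-cell class I myosin, fell, at -2.35 (SE 0.39) with drug and -2.40 (SE 0.34) in DMSO, and its paralog MYO1C rose by 0.79 (SE 0.09) with drug and 0.53 (SE 0.08) in DMSO. LPXN, which encodes the blood-cell adaptor leupaxin, fell, at -2.49 (SE 0.16) with drug and -2.18 (SE 0.14) in DMSO. Its paralog PXN, which encodes paxillin, had 0.37 (SE 0.16, edgeR adjusted p = 0.0747) with drug and rose by 0.87 (SE 0.16) in DMSO. The drug value of PXN passed with library totals and without SMARCA4 shRNA drug replicate 2 or control shRNA drug replicate 1. On the log2 scale the ratio of PXN to LPXN was 2.84 higher with drug and 3.02 higher in DMSO. These lay near the 2.95 and 2.82 of CTTN to HCLS1, as did those of MYO1C to MYO1G, at 3.08 and 2.99. Pooled SDs of the log2 ratio within groups were 0.39 and 0.37 for MYO1C to MYO1G, against 0.04 and 0.11 for CTTN to HCLS1. In SMARCA4 shRNA cells MYO1G had a mean of 0.586 CPM with drug and 0.549 CPM in DMSO, which is few counts. GMFB, paralog of the debranching factor gene GMFG, had 0.19 (SE 0.08, edgeR adjusted p = 0.0937) with drug, which passed with library totals and without control shRNA drug replicate 3, and rose by 0.27 (SE 0.08) in DMSO. FMNL2, a formin, rose by 0.32 (SE 0.11) with drug and 0.44 (SE 0.10) in DMSO, and its blood-cell paralog FMNL1 had -0.23 (SE 0.14) with drug and -0.32 (SE 0.13) in DMSO, neither past the threshold. The drug call of FMNL2 ended by the DESeq2 test and without SMARCA4 shRNA drug replicate 1 or 2 or control shRNA drug replicate 1 or 2 (adjusted p up to 0.103). ARHGDIA, paralog of ARHGDIB, had -0.81 (SE 0.37) with drug and -0.13 (SE 0.38) in DMSO, and CYFIP1, paralog of the WAVE subunit gene CYFIP2, had -0.52 (SE 0.28) with drug and -0.13 (SE 0.28) in DMSO, neither past the threshold. VAV1, a blood-cell guanine nucleotide exchange factor, had log2 fold changes of 0.11 (SE 0.08) with drug and 0.04 (SE 0.08) in DMSO, neither past the threshold. VAV2 had -1.25 (SE 0.49, edgeR adjusted p = 0.0488) with drug, a call that ended in 14 of the 18 alternatives, and -0.72 (SE 0.39, edgeR adjusted p = 0.17) in DMSO. It was in the 1 pair of these 10 whose ratio went the other way, on group means of 0.549 to 1.45 CPM. Group means were also low for ARHGDIA (1.23 to 2.32 CPM) and CYFIP1 (2.02 to 3.09 CPM), so these ratios rest on few counts.

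PTK2 and PTK2B, which encode focal adhesion kinase and its paralog PYK2, formed a pair in which the wider gene was at or near 0 counts in control shRNA cells. PTK2 had 19 to 30 counts per SMARCA4 shRNA library with drug and 20 to 73 in DMSO, against 0 in each control shRNA library with drug and 1 count in all 3 control shRNA libraries in DMSO. Set against a floor of 3 counts over the control group, PTK2 was at least 23.5-fold higher with drug, and with the counting error of both groups the 95% lower limit was 18.6-fold. In DMSO its ratio, against the 1 count as it stands, was 90.6, with a 95% counting interval of 16 to 3600, so the 2 values are on different bases. PTK2B, the blood-cell member, fell, at -1.28 (SE 0.15) with drug and -1.24 (SE 0.15) in DMSO. At 2.87 ± 0.619 CPM with drug and 3.47 ± 1.42 CPM in DMSO in SMARCA4 shRNA cells, PTK2 stayed far below CTTN.

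**Figure D3:**
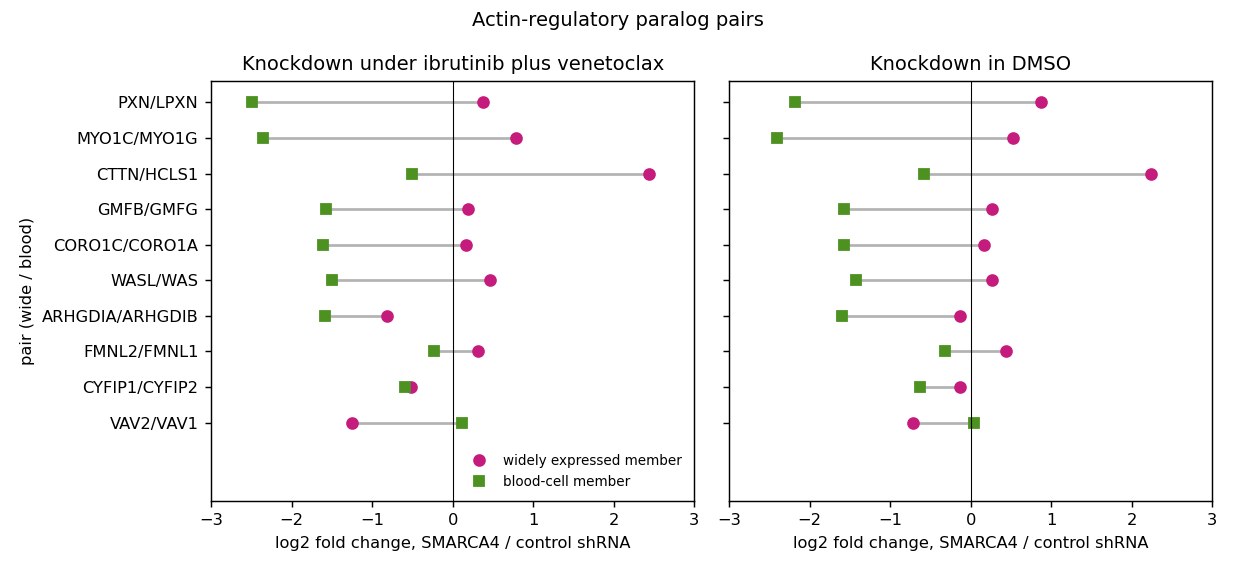
Log2 fold change of knockdown for 10 paralog pairs, with drug (left) and in DMSO (right), circles for the widely expressed gene and squares for the blood-cell gene. PTK2 and PTK2B are left out because PTK2 was at or near 0 counts in control shRNA cells. The CTTN circle lies at 2.44 and 2.24, to the right of all other circles drawn.

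Genes that work with cortactin and HS1 were taken from 6 lists of 109 genes, of which 94 were tested. In DMSO 22 rose and 36 fell (61.7%), and with drug 21 rose and 33 fell (57.4%), with medians of -0.09 and -0.08 against 0 over all genes. The split with drug moved with the scaling, as 28 rose and 27 fell with library totals in place of TMM, while in DMSO 23 rose and 32 fell. Well-expressed genes pass the threshold more often. Among genes whose log2 CPM averaged at least 5, 40.6% passed in DMSO and 40.9% with drug, where the listed genes at that level had 65.5% and 60%. Changes past 2-fold were fewer, with 4 higher and 10 lower in DMSO and 3 higher and 9 lower with drug. The share of all genes past 2-fold is not given here, so these counts have no background and show no skew of the lists. For the drug itself, 2 of the 94 fell in SMARCA4 shRNA cells (GRB2 and ACTB), 1 fell in control shRNA cells (ACTG1), and 0 rose in either. These are 2.13% and 1.06% of the list, near the 1.29% of all genes called in each shRNA.

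The Arp2/3 complex, which both proteins bind, had members on both sides of 0. Of 10 subunit genes, 2 rose and 5 fell in DMSO (70%), and 2 rose and 4 fell with drug (60%). The share of all genes called was 31.3% in DMSO and 31.1% with drug. In DMSO 1 rose without SMARCA4 shRNA DMSO replicate 2 or control shRNA DMSO replicate 2 or 3. ARPC5L, a variant of the ARPC5 subunit, fell, at -0.63 (SE 0.06) with drug and -0.59 (SE 0.06) in DMSO. ARPC2, a core subunit, fell, at -0.27 (SE 0.05) with drug and -0.37 (SE 0.05) in DMSO. ARPC3, another core subunit, fell by 0.22 (SE 0.05) in DMSO and had -0.06 (SE 0.05, edgeR adjusted p = 0.407) with drug. ARPC1A rose by 0.45 (SE 0.07) with drug and 0.39 (SE 0.07) in DMSO, while ARPC1B, the form more common in blood cells, had -0.13 (SE 0.07) with drug and -0.12 (SE 0.07) in DMSO, neither past the threshold, though without control shRNA drug replicate 3 the drug value passed (-0.21, edgeR adjusted p = 0.0305). ACTR3B, a variant of the ACTR3 subunit, rose by 0.59 (SE 0.11) with drug and 0.31 (SE 0.10, edgeR adjusted p = 0.0228) in DMSO, and the DMSO call is the one that ended in those 3 fits (edgeR adjusted p = 0.0708 to 0.0894).

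WASP and WAVE proteins switch the Arp2/3 complex on. Among them, 3 of 15 tested genes rose and 5 fell in DMSO, and 4 rose and 4 fell with drug. That is 53.3% in each treatment, against 31.3% of all genes in DMSO and 31.1% with drug. WAS, the blood-cell activator that HS1 and cortactin work beside, had 27.5 ± 0.465 CPM in SMARCA4 shRNA cells against 78 ± 5.46 CPM in control shRNA cells with drug, and 27.4 ± 2.47 against 73.2 ± 3.98 CPM in DMSO. Its wider paralog WASL rose by 0.46 (SE 0.14) with drug and had 0.26 (SE 0.13, edgeR adjusted p = 0.138) in DMSO, which passed without SMARCA4 shRNA DMSO replicate 1 (0.35, edgeR adjusted p = 0.0488). WIPF1, which stabilises WASP and which cortactin binds, fell, at -0.51 (SE 0.09) with drug and -0.38 (SE 0.09) in DMSO. Its relative WIPF2 rose by 0.32 (SE 0.07) with drug and 0.31 (SE 0.06) in DMSO. In the WAVE complex, CYFIP2 fell, at -0.59 (SE 0.08) with drug and -0.63 (SE 0.07) in DMSO, and ABI3 fell, at -2.84 (SE 0.46) with drug and -2.23 (SE 0.44) in DMSO from a control level of 1.91 CPM in DMSO. In SMARCA4 shRNA cells ABI3 had 0.393 CPM with drug and 0.474 CPM in DMSO. It passed the filter through control shRNA libraries alone, so it could hardly be called higher. NCKAP1L, the blood-cell WAVE subunit, had -0.03 (SE 0.06) with drug and -0.13 (SE 0.06) in DMSO, neither past the threshold. WASF3, WIPF3, NCKAP1 and RAC2 had no row under their symbols.

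Of 15 tested binding partners, 2 rose and 6 fell in DMSO (53.3%), and 2 rose and 3 fell with drug (33.3%), against 31.3% and 31.1% of all genes, so the share with drug lay near the background. In DMSO 3 fell without SMARCA4 shRNA DMSO replicate 3 or control shRNA DMSO replicate 1, and 1 rose by the DESeq2 test and without SMARCA4 shRNA DMSO replicate 1 or 3 or control shRNA DMSO replicate 2 or 3. Besides LPXN, MAP4K1, which encodes the kinase HPK1 that binds the HS1 SH3 domain, fell, at -0.35 (SE 0.09) with drug and -0.42 (SE 0.09) in DMSO. GRB2, an adaptor, fell, at -0.33 (SE 0.06) with drug and -0.30 (SE 0.06) in DMSO. It was also the 1 partner called for the drug, falling by 0.25 (SE 0.06, edgeR adjusted p = 0.0353) in SMARCA4 shRNA cells, a call that ended in 7 of the 18 alternatives tried, with library totals, with the replicate block, and without SMARCA4 shRNA drug replicate 1 or 3 or any SMARCA4 shRNA DMSO replicate. HDAC6, the deacetylase that acts on cortactin, rose by 0.40 (SE 0.09) with drug and 0.36 (SE 0.08) in DMSO. ASAP1, a cortactin-binding regulator of ARF GTPases, rose by 0.27 (SE 0.07) with drug and 0.19 (SE 0.07) in DMSO, and its DMSO call is the one that ended in those 5 alternatives. HAX1, a partner of HS1, fell by 0.20 (SE 0.06, edgeR adjusted p = 0.0187) in DMSO and had -0.13 (SE 0.07, edgeR adjusted p = 0.137) with drug. Its DMSO call ended without SMARCA4 shRNA DMSO replicate 2 or 3 or control shRNA DMSO replicate 1 (edgeR adjusted p up to 0.184), and its drug value passed without SMARCA4 shRNA drug replicate 2 (edgeR adjusted p = 0.0456). DNM2, the membrane-cutting GTPase dynamin 2 that binds the cortactin SH3 domain, had -0.10 (SE 0.06) with drug and -0.12 (SE 0.06) in DMSO, neither past the threshold. SHANK3 had a row that did not pass the filter, and SHANK2, CTTNBP2, TJP1 and FYB1 had no row under their symbols.

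Kinase genes changed in both directions. Of 16 tested, 5 rose and 6 fell in DMSO (68.8%), and 5 rose and 7 fell with drug (75%). The share of all genes called was 31.3% in DMSO and 31.1% with drug. Without control shRNA drug replicate 2, 3 rose with drug. FGR and BLK passed the filter through control shRNA libraries alone, and PTK2 through SMARCA4 shRNA libraries alone. These genes could hardly be called in the other direction, which limits the counts above. LYN, the main SRC family kinase of B cells and one that phosphorylates HS1, had 32.2 ± 3.51 CPM in SMARCA4 shRNA cells against 55 ± 0.305 CPM in control shRNA cells with drug, and 35 ± 3.29 against 54 ± 3.28 CPM in DMSO. It fell, at -0.77 (SE 0.09) with drug and -0.64 (SE 0.08) in DMSO. BTK fell, at -0.92 (SE 0.09) with drug and -0.79 (SE 0.08) in DMSO. FGR, a SRC family kinase of blood cells, had 0 counts in SMARCA4 shRNA libraries with drug and 11 in all 3 in DMSO, against 20 to 41 and 34 to 64 counts per control shRNA library. Set against a floor of 3 counts over the group, FGR counts as they stand were at least 32.7-fold lower with drug. The 95% upper limit of the FGR ratio to control, with the counting error of both groups, was 0.0384, which allows a smaller fall. In DMSO the FGR ratio was 0.0523, with a 95% counting interval of 0.0255 to 0.0966. BLK, also a SRC family kinase of lymphocytes, fell, at -2.59 (SE 0.38) with drug and -1.77 (SE 0.35) in DMSO, and so did LCK, at -1.26 (SE 0.29) with drug and -1.47 (SE 0.27) in DMSO. In the other direction, YES1, the widely expressed SRC family kinase, rose by 0.77 (SE 0.17) with drug and 0.81 (SE 0.16) in DMSO. FER, a kinase that phosphorylates cortactin, rose by 0.96 (SE 0.15) with drug and 0.92 (SE 0.14) in DMSO, and PAK1, which phosphorylates it on serine, rose by 0.29 (SE 0.08) with drug and 0.31 (SE 0.08) in DMSO. The drug call of PAK1 ended without control shRNA drug replicate 2 (edgeR adjusted p = 0.0528). SYK fell by 0.33 (SE 0.07) with drug and had -0.07 (SE 0.07, edgeR adjusted p = 0.496) in DMSO, and the difference of these 2 values, which equals the difference of the drug effect between shRNAs, had an edgeR adjusted p of 0.914.

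Of 29 tested genes for actin, its turnover and its crosslinking, 7 rose and 11 fell in DMSO, and 6 rose and 12 fell with drug. That is 62.1% in each treatment, against 31.3% of all genes in DMSO and 31.1% with drug. The risers in DMSO numbered 4 by the DESeq2 test, 4 without SMARCA4 shRNA DMSO replicate 1 or control shRNA DMSO replicate 1, and 3 without control shRNA DMSO replicate 3. With drug they numbered 3 with 2 groups alone and without SMARCA4 shRNA drug replicate 2 or 3 or control shRNA drug replicate 1 or 2, while with library totals 10 rose and 7 fell. LCP1, the blood-cell bundling protein L-plastin, fell to 129 ± 6.22 CPM in SMARCA4 shRNA cells against 244 ± 2.54 CPM in control shRNA cells with drug, and to 118 ± 3.25 against 240 ± 4.18 CPM in DMSO. GMFG, the blood-cell glia maturation factor that takes filament branches apart, fell, at -1.57 (SE 0.20) with drug and -1.57 (SE 0.19) in DMSO. TMSB4X, the actin monomer buffer thymosin beta 4, fell, at -0.83 (SE 0.11) with drug and -0.66 (SE 0.10) in DMSO. CORO1B, a coronin that competes with cortactin at branches, rose by 0.71 (SE 0.17) with drug and 0.93 (SE 0.16) in DMSO. ACTB, one of the cytoplasmic actins, fell with knockdown, at -0.32 (SE 0.05) with drug and -0.25 (SE 0.05) in DMSO. It also fell by 0.22 (SE 0.05, edgeR adjusted p = 0.0226) for the drug against DMSO in SMARCA4 shRNA cells. ACTG1, the other, fell by 0.23 (SE 0.05, edgeR adjusted p = 0.0196) for the drug in control shRNA cells. The drug call of ACTB ended in 5 of the 18 alternatives, the fits without either SMARCA4 shRNA drug replicate 1 or 3 or any SMARCA4 shRNA DMSO replicate, and that of ACTG1 in 3, the fits without control shRNA drug replicate 2, control shRNA DMSO replicate 2 or control shRNA DMSO replicate 3. GSN had a row that did not pass the filter, and PLS3 had no row under its symbol.

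Genes of invadopodia and podosomes, the matrix-degrading contacts in which cortactin is known, went both ways as well. Of 9 tested, 3 rose and 3 fell in DMSO (66.7%), and 2 rose and 3 fell with drug (55.6%). The share of all genes called was 31.3% in DMSO and 31.1% with drug. SH3PXD2B, which encodes the invadopodium scaffold TKS4, had 7.34 ± 1.04 CPM in SMARCA4 shRNA cells against 3.16 ± 0.393 CPM in control shRNA cells with drug, and 7.30 ± 1.07 against 2.66 ± 0.0372 CPM in DMSO. Its relative SH3PXD2A, which encodes TKS5, fell, at -0.57 (SE 0.06) with drug and -0.41 (SE 0.06) in DMSO. NCK2, an adaptor, rose by 1.20 (SE 0.21) with drug and 1.12 (SE 0.20) in DMSO, and VCL, which encodes vinculin, fell, at -0.54 (SE 0.14) with drug and -0.79 (SE 0.14) in DMSO. The membrane protease gene MMP14 had -0.19 (SE 0.31) with drug and -0.17 (SE 0.26) in DMSO, neither past the threshold, and MMP2, MMP9 and CD44 had no row under their symbols.

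**Figure D4:**
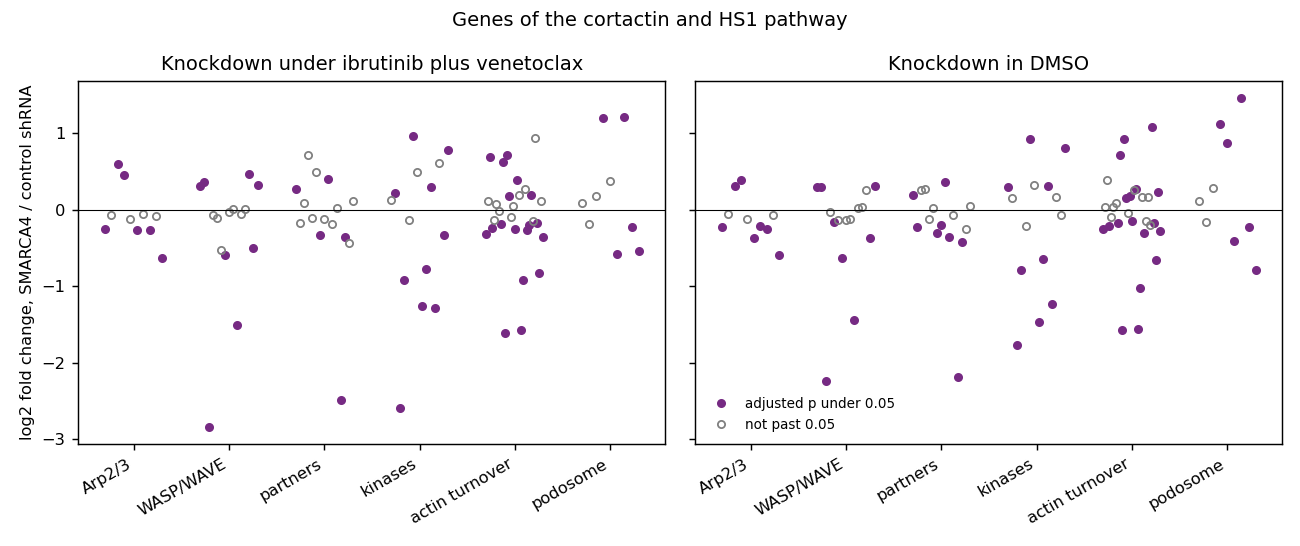
Log2 fold change of knockdown for the tested genes of the 6 lists, with drug (left) and in DMSO (right), filled where the adjusted p is under 0.05. PTK2 and FGR are left out because a group was at or near 0 counts. Filled points lie on both sides of 0 in every list, and the lowest are ABI3, BLK and LPXN.

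Of 6 tested genes beside CTTN on chromosome 11, 2 rose and 3 fell in DMSO and 1 rose and 3 fell with drug, and none reached the fold change of CTTN. These are 83.3% in DMSO and 66.7% with drug, against 31.3% and 31.1% of all genes. Their order is from RefSeq. PPFIA1, the coding gene next to CTTN, rose by 0.29 (SE 0.08, edgeR adjusted p = 0.00718) in DMSO and had 0.06 (SE 0.09, edgeR adjusted p = 0.643) with drug. The DMSO call ended without control shRNA DMSO replicate 3 (0.21, edgeR adjusted p = 0.0656). CCND1, the cyclin D1 gene that the translocation of mantle cell lymphoma activates, fell, at -0.31 (SE 0.06) with drug and -0.33 (SE 0.06) in DMSO. LTO1, listed as ORAOV1, had -0.03 (SE 0.10) with drug and 0.01 (SE 0.10) in DMSO. TPCN2, an endolysosomal channel gene, fell, at -1.06 (SE 0.09) with drug and -1.33 (SE 0.08) in DMSO, and fell by 0.41 (SE 0.08, edgeR adjusted p = 0.00129) for the drug in control shRNA cells. On the other side of CTTN, DHCR7, a cholesterol synthesis gene, rose by 0.55 (SE 0.13) with drug and 0.93 (SE 0.14) in DMSO, and it also rose for the drug, by 0.50 (SE 0.12, edgeR adjusted p = 0.0265) in SMARCA4 shRNA cells and 0.88 (SE 0.15, edgeR adjusted p = 0.000443) in control shRNA cells. Its drug call in SMARCA4 shRNA cells ended in 6 of the 18 alternatives, the DESeq2 test (adjusted p = 0.0661) and the fits without any SMARCA4 shRNA library but DMSO replicate 3. NADSYN1, an NAD synthesis gene, fell, at -0.36 (SE 0.11) with drug and -0.31 (SE 0.10) in DMSO. Its call ended in 6 fits that left out 1 library, 2 of them with drug and 4 in DMSO (edgeR adjusted p up to 0.115). FADD had a row that did not pass the filter, and MYEOV, FGF19, FGF4, FGF3, ANO1 and SHANK2 had no row under their symbols. Around HCLS1 on chromosome 3, 2 of 8 tested genes fell in both treatments (25%), below the share of all genes called in either. POLQ, a DNA repair polymerase gene with 2 coding genes between it and HCLS1, fell, at -0.49 (SE 0.08) with drug and -0.59 (SE 0.08) in DMSO, close to the values of HCLS1. CD86, a costimulatory ligand, fell, at -2.47 (SE 0.44) with drug and -2.54 (SE 0.35) in DMSO from a control level of 3.83 CPM in DMSO. In SMARCA4 shRNA cells CD86 had 0.481 CPM with drug and 0.615 CPM in DMSO. It passed the filter through control shRNA libraries alone, so it could hardly be called higher. GOLGB1, next to HCLS1, had -0.14 (SE 0.08) with drug and -0.15 (SE 0.07) in DMSO, neither past the threshold, though without control shRNA DMSO replicate 3 the DMSO value was -0.21 (edgeR adjusted p = 0.041). RABL3 had -0.33 (SE 0.13, edgeR adjusted p = 0.0564) with drug and -0.29 (SE 0.12, edgeR adjusted p = 0.0682) in DMSO, and without SMARCA4 shRNA drug replicate 2 the drug value passed (-0.41, edgeR adjusted p = 0.0445). GTF2E1, IQCB1, EAF2 and SLC15A2 also did not pass, and STXBP5L, ARGFX, FBXO40 and ILDR1 had no row under their symbols.

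The genes with profiles most like CTTN were found by the root mean square difference of centred log2 CPM over the 12 libraries, among 8179 other genes whose log2 CPM averaged at least 3. They were ARPP21 (0.109), KCNK12 (0.197), PFN2 (0.204), SDC1 (0.237) and SEMA4C (0.269), where the median gene lay at 1.176. The knockdown moved each of them by between 1.89 and 2.37 on the log2 scale. ARPP21, which encodes a cAMP-regulated phosphoprotein, had 51.7, 53.4 and 54.8 CPM in SMARCA4 shRNA cells against 10.5, 11.5 and 11.4 CPM in control shRNA cells with drug, and 51.7, 46 and 49.9 against 10.5, 11.1 and 9.91 CPM in DMSO. PFN2, which encodes profilin 2, an actin monomer-binding protein, had 50.5, 44.3 and 45.2 CPM in SMARCA4 shRNA cells against 6.53, 9.3 and 11.4 CPM in control shRNA cells with drug. PFN1, the main profilin gene, fell by 0.21 (SE 0.07, edgeR adjusted p = 0.0195) with drug and had -0.15 (SE 0.07, edgeR adjusted p = 0.0991) in DMSO. The drug call of PFN1 ended with library totals and without SMARCA4 shRNA drug replicate 3 or control shRNA drug replicate 1 or 3, and its DMSO value passed without SMARCA4 shRNA DMSO replicate 3. KCNK12 encodes a potassium channel, SDC1 the plasma cell marker syndecan 1, and SEMA4C a semaphorin.

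HCLS1 had many genes close to it, 1129 within 0.2 against 2 for CTTN. Its profile spans less, and the median gene lay at 0.304 from it, against 1.176 from CTTN, so the counts are not on a like footing. The 5 nearest were PDLIM1 (0.026), CD81 (0.056), TSTD1 (0.062), MRPS18B (0.063) and ARPC5L (0.066). PDLIM1, which encodes an actin-associated PDZ and LIM domain protein, had 490, 469 and 522 CPM in SMARCA4 shRNA cells against 676, 658 and 736 CPM in control shRNA cells with drug. CD81 encodes a tetraspanin, MRPS18B a mitochondrial ribosomal protein and ARPC5L the Arp2/3 subunit described above. Which genes lie nearest HCLS1 depended on the measure. By group means in place of libraries, 1 of these 5 was still among the nearest, PDLIM1, where all 5 were for CTTN. Without the minimum level, 5 of 5 were for HCLS1 and 4 of 5 for CTTN. These points share libraries and depth, so likeness is a description only.

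**Figure D5:**
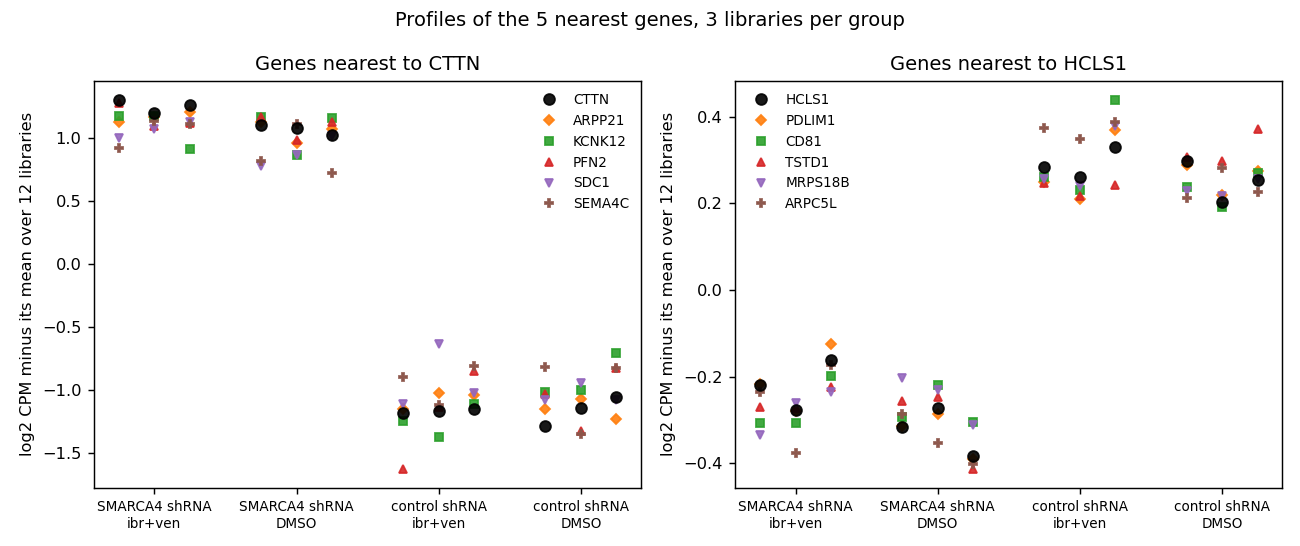
Log2 CPM minus its mean over the 12 libraries for CTTN and its 5 nearest genes (left) and HCLS1 and its 5 nearest genes (right), 1 point per gene and library. CTTN and its neighbours lie above 0 in all SMARCA4 shRNA libraries and below 0 in all control shRNA libraries, and HCLS1 and its neighbours lie the other way, with a smaller span.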

How the data were processed

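The authors deposited raw gene counts, as whole numbers and not normalized, in a single table for 12 libraries. Per the labels' protocols, RNA was isolated with a Qiagen kit and sequenced from QuantSeq 3' libraries. Tools named by the submitters' processing notes are bcl2fastq (2.17.1.14), HISAT2 and HTSeq, with build hg19, and the annotation and strand setting were not stated. Gene coordinates are left out because the annotation used here is GRCh38.

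In edgeR 4.0.16 (R 4.3.3), filterByExpr (minimum count 10, minimum total 15) kept 12602 of 13820 genes. A gene kept through the libraries of 1 shRNA alone could hardly be called in the other direction, among them PTK2, MYO1G, VAV2, FGR, BLK, ABI3 and CD86. Counts were scaled by TMM, and all libraries entered a quasi-likelihood fit with 1 coefficient per group (8 residual and 22.5 prior degrees of freedom). Two-sided p-values were Benjamini-Hochberg adjusted across the 12602 genes, and "rose" and "fell" mean an adjusted p under 0.05. The SE is the log2 fold change over the square root of F. The fit was tested on simulated data. The ratio used a prior count of 0.5, and log2 CPM one of 2.

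Members, lists and pairs were chosen with earlier results of these data known. Genes were named by rule: up to 4 per list and knockdown comparison with the smallest adjusted p, those called for the drug, the neighbours, the pairs with both genes tested and the 5 nearest profiles. ARPC1B, NCKAP1L, HAX1, DNM2, BLK, LCK, YES1, FER, PAK1, SYK, CORO1B, MMP14 and PFN1 were named after their values were seen. The 5 comparisons were knockdown in each treatment, drug in each shRNA and the interaction. Alternatives were DESeq2 size factors, library totals, no filter, the DESeq2 1.42.0 test, 2 groups alone, the replicate number as a block, and leaving out each library. Some listed genes are not reported here.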

Additional observations from a re-analysis of the deposited data

How the results depend on the processing

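Of 173 results on single named genes, 135 kept their direction and their side of the threshold in all of the 18 alternatives that tested them. Those on genes or comparisons outside the naming rule were added after seeing the data. With library totals in place of TMM, CTTN had a knockdown log2 fold change of 2.52 with drug and HCLS1 one of -0.43. The share of knockdown calls with drug that were higher was then 65.03%, against 47.46% with TMM, and the median of all genes moved to 0.083. Listed genes called lower for the drug were then 1 in SMARCA4 shRNA cells and 2 in control shRNA cells, against 2 and 1. ORAOV1 (0.0496), GTF2E1 (0.0206), PAX5 (0.0459), ARPC3 (0.0218) and NCKAP1L (0.057) changed sign with drug. The replicate numbers did not pair the samples, as correlations of same-numbered deviations ran from -0.116 to 0.082 and 4 of 12 libraries correlated best with their own number. With the replicate block, 3822 genes were called for knockdown in DMSO, and the listed genes lower for the drug in SMARCA4 shRNA cells numbered 1.

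Leaving out 1 library gave knockdown values of CTTN of 2.19 to 2.31 in DMSO and 2.42 to 2.46 with drug. The drug value of CTTN in control shRNA cells ran from -0.066 to 0.046, and was positive without drug replicate 1, DMSO replicate 2 or DMSO replicate 3. The knockdown difference of the ratio in DMSO ran from 2.73 to 2.87 and its drug difference in control shRNA cells from -0.132 to 0.00534. Genes called for the drug numbered 100 to 181 in SMARCA4 shRNA cells, with 102 without drug replicate 1 and 100 without DMSO replicate 3. In control shRNA cells they numbered 106 to 176, with 106 without drug replicate 1, the library assigned by elimination. The interaction called 1 to 3 genes. Listed genes lower for the drug numbered 0 to 2 in SMARCA4 shRNA cells and 0 to 3 in control shRNA cells. Single genes that changed sign were ORAOV1 (-0.0533 to 0.0688 in DMSO, -0.117 to 0.065 with drug), GTF2E1 (-0.115 to 0.0095), IQCB1 (-0.0488 to 0.0864) and EAF2 (-0.46 to 0.22) with drug, SLC15A2 (-0.49 to 0.13) in DMSO, and, of those named in addition, MMP14 (-0.536 to 0.117), PAX5 (-0.0901 to 0.0181) and NCKAP1L (-0.0607 to 0.0256) with drug, and ARHGDIA (-0.371 to 0.418), CYFIP1 (-0.255 to 0.022) and MMP14 (-0.266 to 0.0258) in DMSO. The smallest adjusted p of CTTN for the drug in SMARCA4 shRNA cells over all alternatives was 0.0572. The cause of these shifts was not tested. Depth limits the ratio most in control shRNA libraries, which had 189 to 225 CTTN counts each.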
